A study of Rattus norvegicus with 16 samples.

Results

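Of 41078 transcripts counted in rat neural stem cells grown in hydrogels, 112 were set apart at 48 h by the presence of RGD in the gel, 69 higher with RGD and 43 lower. RGD is a short adhesion peptide that integrins, the receptors that tie cells to fibronectin and related matrix proteins, recognise. The members were chosen on CPM, the usual unit for a transcript's share of all counts in its library. All 4 libraries with RGD at 48 h had to lie above, or all below, all 4 libraries without it, the larger of the 2 group means had to reach 5 CPM, and the log2 ratio of the means, with 1 CPM added to each, had to be 0.6 or more in size. The log2 change of the mean CPM from 12 h to 48 h had to lie between -2 and 1.5, and transcripts whose 4 stiff and 4 soft libraries at 12 h did not overlap were dropped. The values that chose the members are therefore given as a description and carry no test.

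The cells were adult rat hippocampal neural stem cells, the dividing precursors of the dentate gyrus that can become neurons, astrocytes or oligodendrocytes. All groups shared the same gel polymer, hyaluronic acid, and the same medium for mixed differentiation, DMEM-F12 with N2, 1 μM retinoic acid and 1% fetal bovine serum. The gels were soft (100 Pa) or stiff (1.2 kPa), carried RGD or did not, and were sampled at 12 h or 48 h, which made 8 groups of 2 libraries and 16 libraries in all. Each comparison of RGD at 1 time thus set 4 libraries, 2 soft and 2 stiff, against another 4. Nothing in the labels says that the 2 libraries of a group came from separate cultures, and the spread between them may be technical.

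Hyaluronic acid is a polysaccharide of the brain matrix that cells hold through CD44 and related receptors rather than through integrins. Integrins bound to RGD gather kinases such as focal adhesion kinase and Src at adhesion sites and link them to the actin cytoskeleton. Retinoic acid with serum is a common signal for hippocampal stem cells to leave the cell cycle and differentiate. Whether the cells sampled at 12 h and 48 h followed that course was not tested.

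The table lists Ensembl transcript identifiers without gene names, and 0 of them could be matched to a symbol in the reference of 47357 rat genes used here. The members are therefore described as sets. Those named by identifier had the largest ratios at 48 h, or had the libraries with and without RGD apart at 12 h as well. The labelled cell type could not be checked against marker genes for the same reason. Isoforms, overlapping genes and antisense genes can share reads, which limits how far any one identifier's level can be trusted. The RNA is from pelleted cells in bulk, in which fewer cells of a type and less RNA per cell cannot be told apart.

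Depth differed between the groups that the rule compared. At 48 h the libraries held 2035890 to 2737608 counts with RGD and 2482576 to 2926954 without, and at 12 h 1829779 to 3420786 with RGD and 2137103 to 2529499 without. In each library 2 transcripts took between 45.6% and 55.2% of all counts. A level of 5 CPM, the floor of the rule, was 10.2 counts in the shallowest and 14.6 counts in the deepest library at 48 h. For the condition on stiffness, the soft libraries at 12 h held 1829779 to 2157015 counts and the stiff ones 2294844 to 3420786, without overlap. The lower depth with RGD at 48 h and in soft gels at 12 h moved with those comparisons. The part of depth in the member list was not tested.

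Of the 41078 transcripts, 6601 reached 5 CPM at 48 h. Among these, 184 had all libraries with RGD above those without (2.79%) and 188 had all below (2.85%). By edgeR's quasi-likelihood test of RGD at 48 h, 4 of 7876 tested transcripts had an adjusted p under 0.05, which is 0.0508%, and 1191 (15.1%) had an unadjusted p under 0.05. Nothing about the members is read from these shares, since the rule used that contrast. The limit on the ratio left 131 transcripts, those on the change with time 124, and the condition on stiffness 112. At these steps 72, 72 and 69 were higher with RGD, and 59, 52 and 43 were lower. The limits on the change with time thus removed only transcripts lower with RGD. The nearest members had log2 ratios of 0.608 and -0.601, and the nearest transcripts outside 0.588 and -0.592. The nearest group means were 5.01 CPM inside and 4.94 CPM outside among the transcripts higher with RGD, and 5.4 and 3.83 CPM among those lower. The log2 change with time reached from -1.25 to 1.32 in the members, and the nearest transcript outside had 1.51.

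The balance of the 2 directions depended on how the libraries were scaled. With 69 higher and 43 lower on CPM from library totals, the same rule gave 44 higher and 64 lower on CPM from TMM-scaled library sizes (TMM is edgeR's trimmed mean scaling). It gave 111 higher and 47 lower when the 2 most abundant transcripts were left out of the totals. Of the 112 members, 81 were also found with TMM scaling and 99 without the abundant pair. The median log2 ratio of RGD to no RGD over the 6601 transcripts at 48 h was 0.049 on library totals, -0.004 with TMM scaling and 0.073 without the pair.

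Most members were of low to moderate abundance. Among those higher with RGD, 35 lay below 10 CPM on average at 48 h, 19 from 10 to 30, 10 from 30 to 100 and 5 at 100 or more. Among those lower with RGD the numbers were 14, 17, 8 and 4. The 5 abundant members of the first set ranged over their libraries from 80.6 to 1420 CPM without RGD and from 146 to 2110 CPM with it, with log2 ratios of 0.62 to 0.88. The 4 abundant members of the second set ranged from 132 to 211 CPM without RGD and from 80.7 to 147 CPM with it, with log2 ratios of 0.61 to 0.75 in size.

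The ratios themselves were small. The members higher with RGD had a median log2 ratio of 0.77, between 0.61 and 1.31, and 10 of 69 reached 1. Those lower with RGD had a median of -0.69, between -1.25 and -0.60, and 1 of 43 reached 1 in size. The gap between the nearest libraries of the 2 groups was narrow, with a median of 0.16 on the log2(CPM + 1) scale for the members higher and -0.15 for those lower, where the libraries with RGD lay below. Within the 4 libraries of a group, the SD was a median 21.0% of the mean with RGD and 25.1% without among the members higher. Among those lower it was 22.2% with RGD and 13.5% without.

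**Figure D1:**
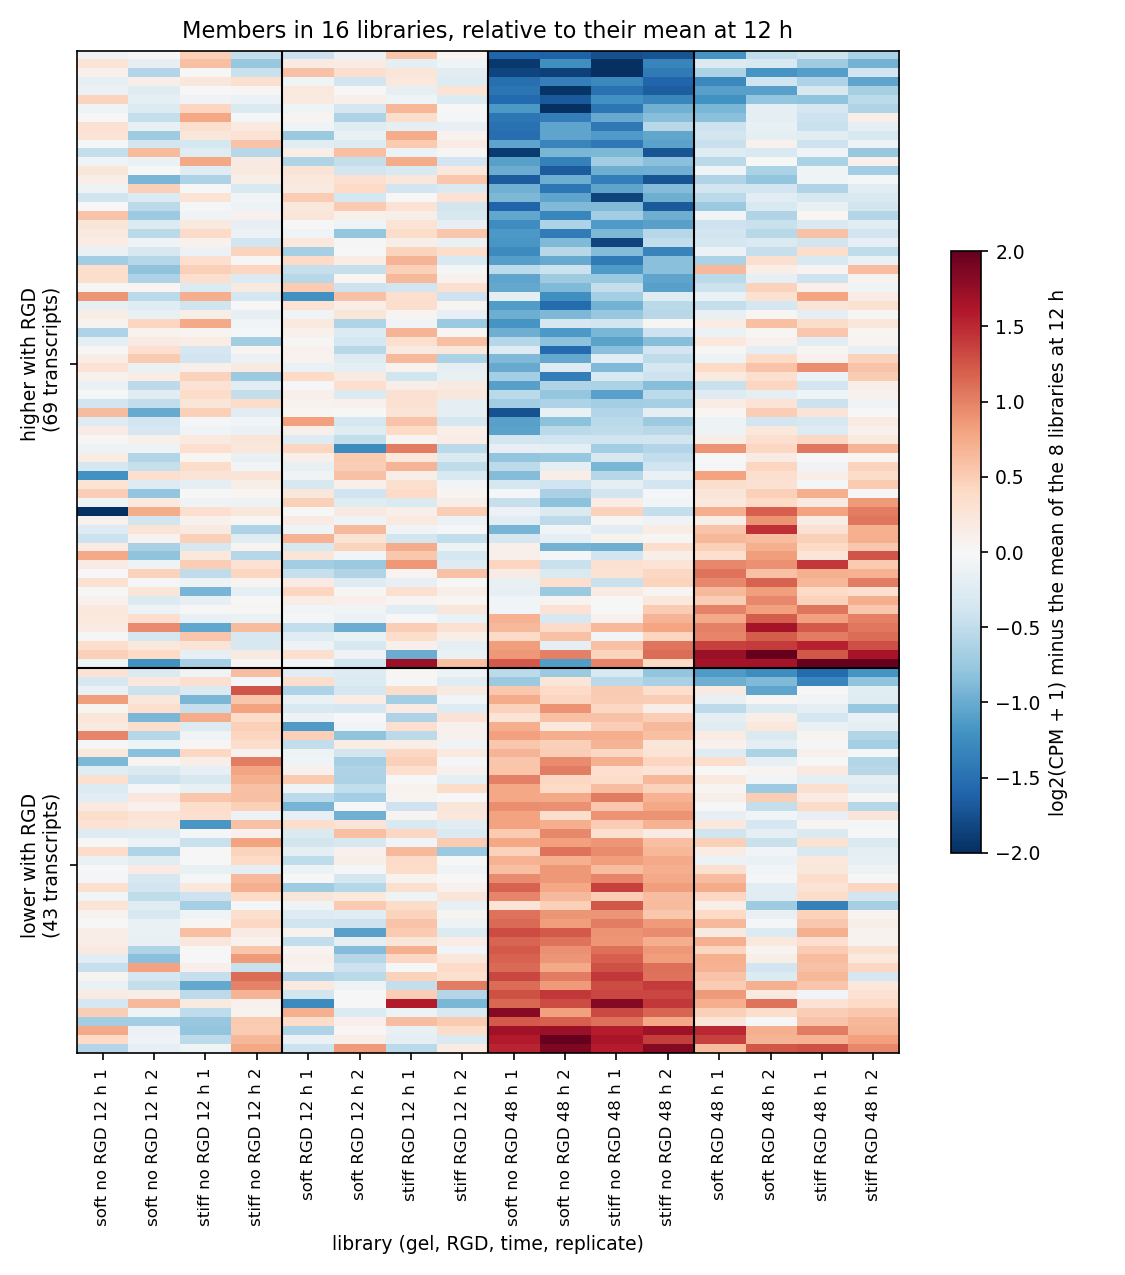
The 112 members (rows) in the 16 libraries (columns), as log2(CPM + 1) minus the transcript's mean over the 8 libraries at 12 h, ordered within each set by the change with time without RGD. Among the 69 members higher with RGD, the 4 libraries without RGD at 48 h are blue in most rows. Among the 43 lower with RGD the same 4 libraries are red in most rows. Measured instead from the 12 h libraries without RGD alone, their change was below 0 for 58 of 69 and above 0 for 41 of 43. The libraries with RGD at 48 h are paler in many rows but not in all. Measured from the 12 h libraries of the same RGD group, the change was smaller with RGD for 47 of 69 and 40 of 43.

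The member with the largest ratio among those with a mean of 20 or more counts at 48 h was ENSRNOT00000091687.1. At 48 h it stood at 22.2 and 3.55 CPM in soft and at 18.5 and 12.0 CPM in stiff RGD-free gels. With RGD it stood at 30.2 and 30.4 CPM in soft and at 46.2 and 39.1 CPM in stiff gels. Means were 14.1 ± 8.20 CPM without and 36.5 ± 7.68 CPM with RGD (SD, n = 4 each), a log2 ratio of 1.31. One of the soft libraries without RGD, at 3.55 CPM, was far lower than its partner at 22.2 CPM.

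At 12 h ENSRNOT00000091687.1 stood at 8.34, 3.28, 5.23 and 9.09 CPM without RGD. With RGD it stood at 8.74 and 6.70 CPM in soft and at 31.4 and 14.0 CPM in stiff gels. The stiff libraries with RGD were thus above all others at that time, while the soft ones lay within the range without RGD. The edgeR log2 fold change of RGD at 12 h was 0.99 ± 0.52 (SE) with an adjusted p of 1.0.

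ENSRNOT00000020505.3 was the second. Without RGD at 48 h it stood at 33.5 and 56.5 CPM in soft and at 36.3 and 53.3 CPM in stiff gels. With RGD it stood at 90.3 and 101 CPM in soft and at 130 and 101 CPM in stiff gels. The lowest library with RGD was well above the highest without, and the means were 44.9 ± 11.7 and 105 ± 16.9 CPM (SD, n = 4 each), a log2 ratio of 1.21.

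At 12 h the same transcript had 62.2 to 83.4 CPM without RGD and 59.3 to 71.5 CPM with RGD. The levels at 12 h thus lay between those of the 2 groups at 48 h. On library totals the 12 h groups overlapped, while with TMM scaling or without the abundant pair all 4 libraries with RGD lay below the others at 12 h. The edgeR log2 fold change of RGD at 12 h was -0.24 ± 0.155 (SE) with an adjusted p of 1.0.

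Of the members lower with RGD, ENSRNOT00000068156.3 had the largest ratio by the same rule. Without RGD at 48 h it stood at 103 and 83.8 CPM in soft and at 108 and 86.4 CPM in stiff gels. With RGD it stood at 60.1 and 32.9 CPM in soft and at 64.3 and 31.4 CPM in stiff gels. The means were 95.1 ± 11.8 and 47.2 ± 17.5 CPM (SD, n = 4 each), a log2 ratio of -0.997. In both the soft and the stiff gel with RGD, replicate 1 was higher than replicate 2.

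At 12 h ENSRNOT00000068156.3 ranged from 28.8 to 88.6 CPM without RGD and from 25.7 to 55.8 CPM with RGD, and the groups overlapped. Its highest value at 12 h, 88.6 CPM, was in RGD-free stiff replicate 2, where the other 7 libraries lay at 55.8 CPM or less. Without that library the edgeR log2 fold change of RGD at 12 h turned from -0.31 ± 0.345 to 0.19 ± 0.261 (SE), with an adjusted p of 1.0 in both fits.

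ENSRNOT00000021898.5 had tight levels without RGD at 48 h, 31.0 and 34.4 CPM in soft and 32.6 and 32.5 CPM in stiff gels. With RGD it stood at 23.1 and 14.1 CPM in soft and at 11.8 and 15.3 CPM in stiff gels. The means were 32.6 ± 1.42 and 16.1 ± 4.88 CPM (SD, n = 4 each), a log2 ratio of -0.98. At 12 h it had 8.28 to 20.2 CPM without RGD and 7.89 to 17.7 CPM with it, so that the level with RGD at 48 h was close to the earlier ones in both kinds of gel. Its edgeR log2 fold change of RGD at 12 h was -0.28 ± 0.278 (SE, adjusted p = 1.0), and 0.10 ± 0.301 (adjusted p = 1.0) without RGD-free stiff replicate 2.

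**Figure D2:**
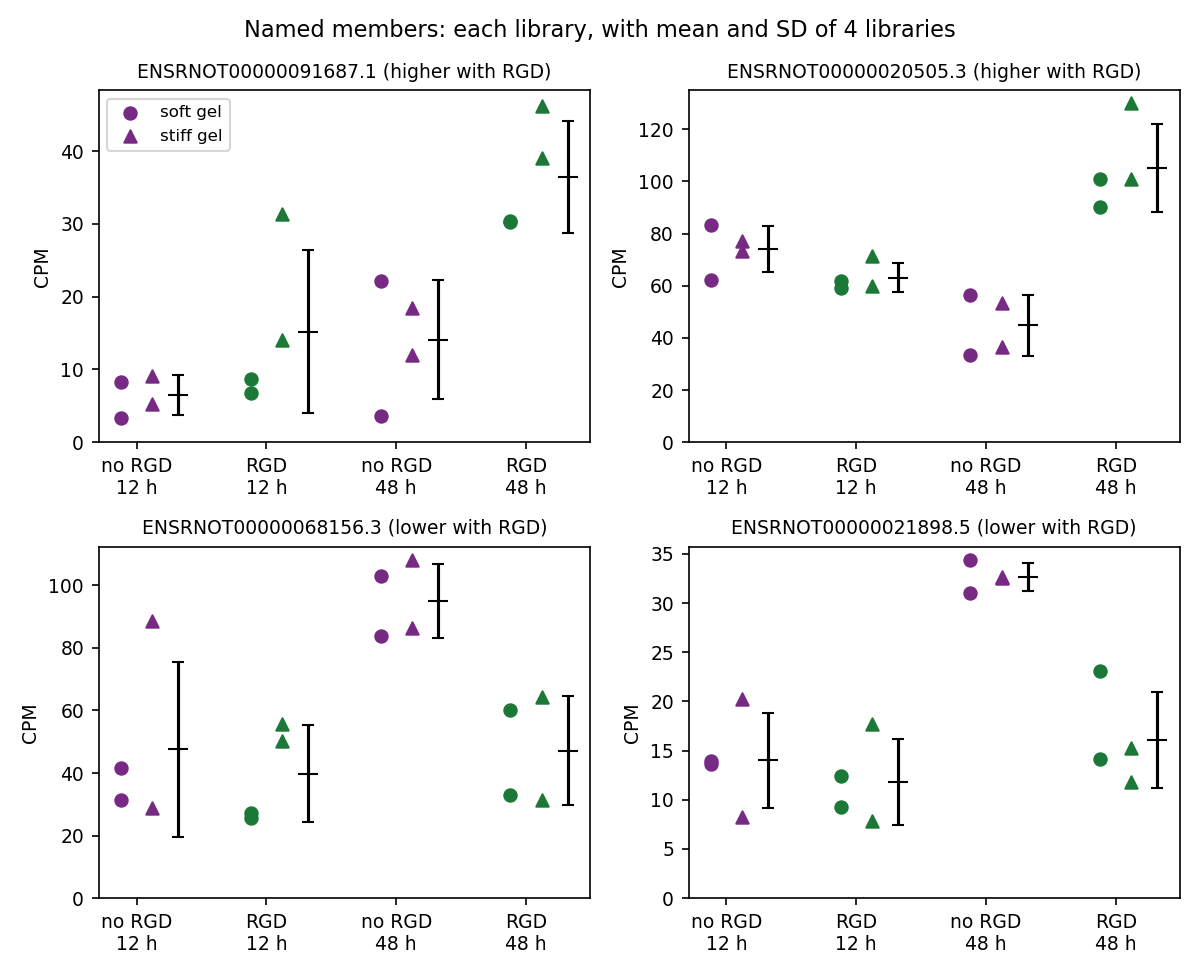
Levels of the 4 named members in each library (CPM; circles are soft and triangles stiff gels, purple without and green with RGD), with the mean and SD of the 4 libraries of each RGD group and time as black bars. In each panel the groups with and without RGD are apart at 48 h, by the rule, and overlap at 12 h.

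The time course is described here for each kind of gel, without a test. The rule set limits on the change averaged over all libraries and did not compare each kind of gel with 12 h. Those limits still bear on the time course. They removed 7 transcripts, all lower with RGD, and those that met the other conditions had risen past the upper limit. The 6601 transcripts set beside the members were not cut this way, and their averaged log2 changes ran from -3.52 to 4.67. For each member, the log2 change with RGD minus that without equals the RGD log2 ratio at 48 h minus that at 12 h. The 48 h ratio chose the members, and the 12 h ratios had medians of 0.07 for those higher and -0.12 for those lower. The gap between the changes in the 2 kinds of gel therefore follows largely from the choice. Without RGD, the members higher with RGD had a median log2 change from 12 h to 48 h of -0.71, and 58 of 69 were below 0. With RGD the median was -0.07, and 37 were below 0. The members lower with RGD had a median change of 0.73 without RGD, with 41 of 43 above 0, and of 0.05 with RGD, with 24 above 0. Of the 6601 transcripts, 49.6% were above 0 without and 52.1% with RGD.

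Compared within one kind of gel, all 4 libraries at 48 h lay below all 4 at 12 h for 35 of the 69 members higher with RGD in gels without it (12.9% of the 6601 transcripts) and for 9 in gels with it (8.68%). In gels with RGD another 10 of the 69 lay wholly above, against 10.4% of all transcripts. For the 43 members lower with RGD, all 4 at 48 h lay above all 4 at 12 h for 23 in gels without RGD (12.1% of all) and for 2 in gels with it (10.4%). The shares of the members in RGD-free gels were thus well over the background, and the choice of members favours this. For the members lower with RGD, a low share wholly above 12 h is partly built in, since the limits on the change with time removed strong rises.

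Set against all 8 libraries at 12 h, the 4 libraries without RGD at 48 h lay wholly below them for 31 of the 69 members higher with RGD, where 9.97% of the 6601 transcripts did. The 4 libraries with RGD did so for 3 of the 69, where 5.09% of all transcripts did. For the 43 members lower with RGD, the libraries without RGD lay wholly above all those at 12 h for 19, against 9.32% of all transcripts. The libraries with RGD did so for 1, against 6.73%. In the other direction, the libraries with RGD lay wholly above all those at 12 h for 9 of the 69 members higher with RGD, against 6.73% of all transcripts, and those without RGD for 0, against 9.32%. Of the 43 members lower with RGD, 2 had the libraries with RGD wholly below 12 h, against 5.09% of all, and 1 had those without it below, against 9.97%. With TMM scaling the first 4 of these counts (31, 3, 19 and 1) were 29, 3, 20 and 1. The matching shares of all transcripts were then 9.92%, 5.35%, 12.3% and 7.04%. Without the abundant pair the counts were 32, 4, 18 and 1, against 12.5%, 6.2%, 8.4% and 5.89% of all transcripts. The members were picked for a gap between the same 48 h libraries, so that some excess in 1 of the 2 kinds of gel follows from the choice. The limits on the change with time also took strong rises out of the members lower with RGD but not out of the 6601 transcripts. No test is given.

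By direction alone the members fell into few kinds. Among those higher with RGD, 37 were lower at 48 h than at 12 h in both kinds of gel, with a median log2 change of -1.03 without and -0.33 with RGD. Another 21 were lower at 48 h without RGD and higher with it, with medians of -0.34 and 0.39, and 11 were higher in both, with medians of 0.27 and 1.02. Among those lower with RGD, 24 were higher at 48 h in both kinds of gel, with medians of 0.89 without and 0.33 with RGD, and 17 were higher without and lower with RGD, with medians of 0.49 and -0.07. The last 2 were lower in both, with medians of -0.60 and -1.04. Of the 6601 transcripts, 2524 were lower at 48 h in both kinds of gel, 2632 were higher in both, 804 were lower without and higher with RGD, and 641 the reverse. Many of the members' changes are close to 0, so that membership of a kind is uncertain for single transcripts. The smaller change was the one with RGD for 47 of 69 and 40 of 43 members, and for 59.0% of the 6601 transcripts.

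**Figure D3:**
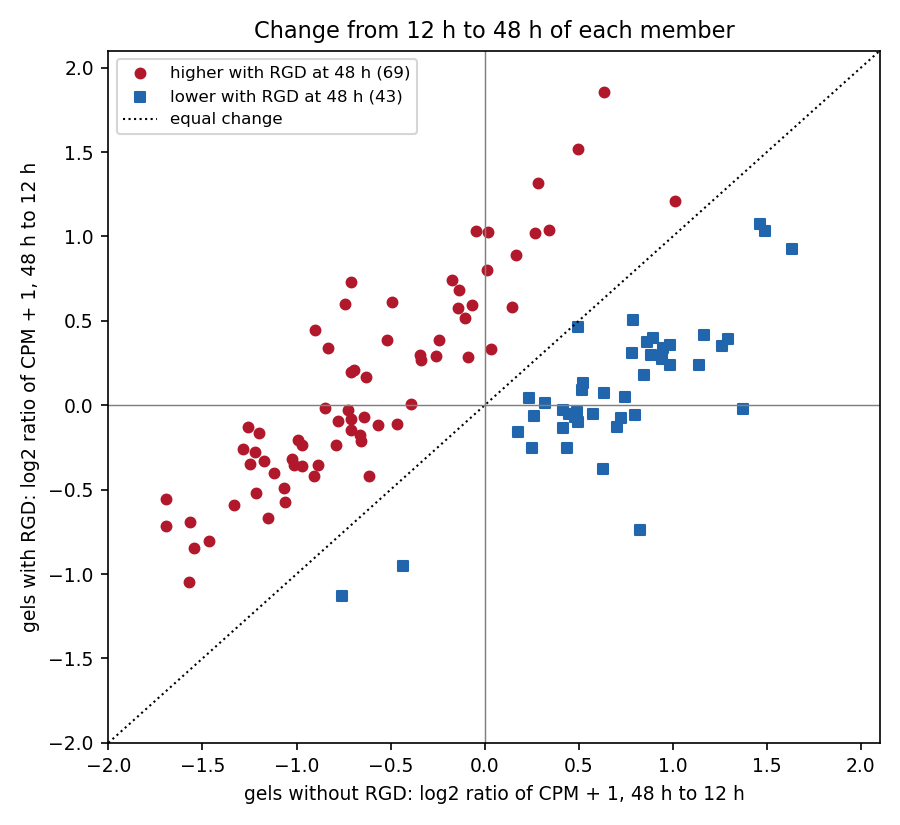
Change from 12 h to 48 h of each of the 112 members as the log2 ratio of CPM + 1, in gels without RGD (horizontal axis) and with RGD (vertical axis). The 69 members higher with RGD (red circles) lie mostly left of 0 and the 43 lower with RGD (blue squares) right of 0, with medians of -0.71 and 0.73 without RGD, while along the vertical axis the medians are -0.07 and 0.05.

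The position of each library, taken as the median over a set of log2(CPM + 1) minus the transcript's mean at 12 h, showed how evenly the libraries carried this. For the members higher with RGD, the libraries without RGD at 48 h stood at -0.926 and -0.816 in soft and at -0.703 and -0.529 in stiff gels. Those with RGD at 48 h stood at -0.051 and 0.281 in soft and at 0.048 and 0.103 in stiff gels, within or close to the range of the 12 h libraries, -0.189 to 0.253. For the members lower with RGD, the libraries without RGD at 48 h stood at 0.828 and 0.841 in soft and at 0.887 and 0.695 in stiff gels. Those with RGD stood at 0.209 and -0.062 in soft and at 0.22 and -0.039 in stiff gels.

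One library at 12 h stood apart for the members lower with RGD. RGD-free stiff replicate 2 stood at 0.505, while the other 7 libraries at 12 h lay between -0.251 and 0.174. For the members higher with RGD the same library stood at -0.04, and over the 6601 transcripts at 0.073. Over the 6601 transcripts the libraries stood between -0.13 and 0.214 at 12 h and between -0.109 and 0.115 at 48 h.

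**Figure D4:**
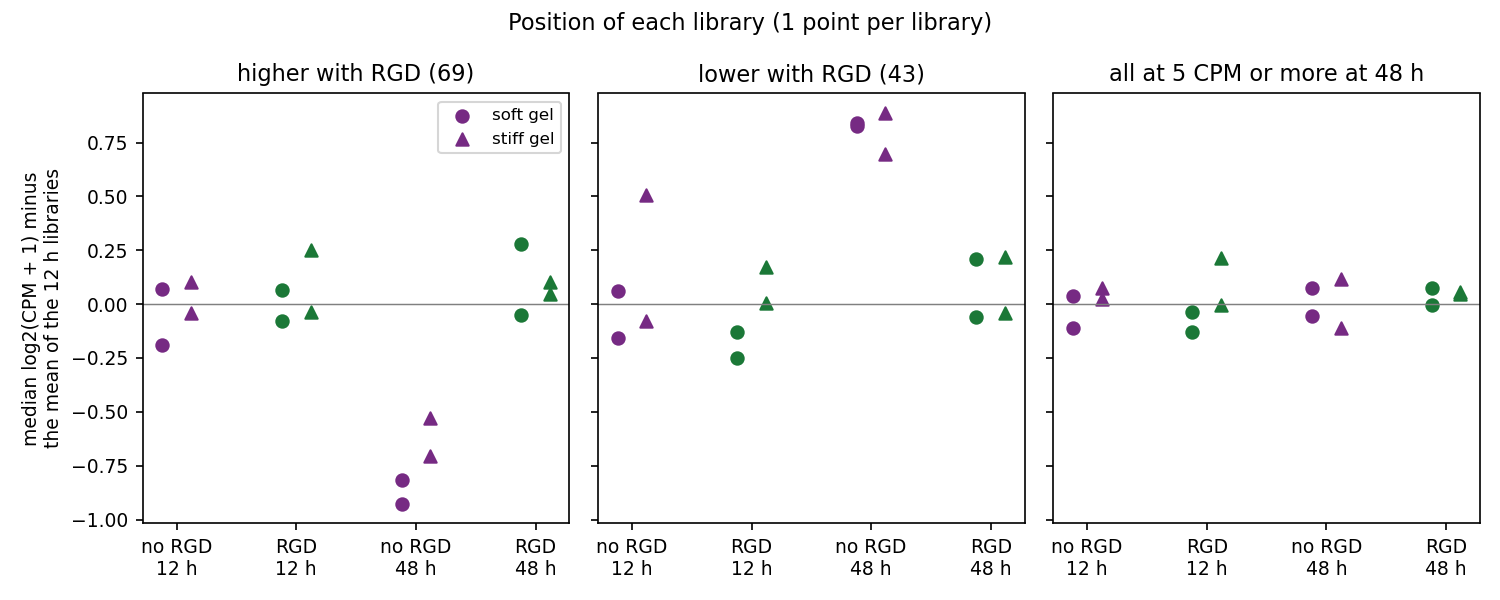
Position of each of the 16 libraries (points; circles soft, triangles stiff, purple without and green with RGD) for the 69 members higher with RGD, the 43 lower with RGD and all 6601 transcripts at 5 CPM or more at 48 h, as the median of log2(CPM + 1) minus the mean at 12 h. The 4 libraries without RGD at 48 h lie at -0.926 to -0.529 and at 0.695 to 0.887 in the member panels, and 1 stiff library without RGD at 12 h stands at 0.505 in the middle panel.

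Whether the members already differed with RGD at 12 h could be tested, since those 8 libraries were not compared by RGD in the rule. No member passed: edgeR called 0 of 112 at an adjusted p under 0.05 and 0 of all 7876 tested transcripts (0.0%), with a smallest adjusted p of 1.0. DESeq2 and limma-voom called 0 members as well. At an unadjusted p under 0.05 by edgeR there were 6 of 112 members, against 3.16% of all tested transcripts, 1 above and 2 below 0 among those higher with RGD at 48 h and 1 above and 2 below 0 among those lower. A difference at 12 h was therefore not detected for any single member, at a depth and number of libraries that leave SEs such as 0.155 to 0.52 on the log2 scale for the named ones.

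As sets, the members had small fold changes at 12 h. Those higher with RGD at 48 h had a median edgeR log2 fold change of 0.027 at 12 h, with 39 of 69 above 0, and all tested transcripts had a median of -0.007 with 48.5% above 0. Those lower with RGD at 48 h had a median of -0.16, with 33 of 43 below 0. The second set's value rested on 1 library: without RGD-free stiff replicate 2 at 12 h the median was 0.043, with 17 of 43 below 0. Leaving out other libraries gave medians down to -0.269, the value without RGD-free stiff replicate 1. Across the 112 members, the log2 ratios of RGD at 48 h and 12 h, which share no library, were correlated with a Pearson r of 0.35, and over the 6601 transcripts it was 0.18. Within the members higher it was 0.29 and within those lower 0.01. The 112 members were chosen at both ends of the 48 h ratio, which can raise r by itself, so that 0.35 and 0.18 are not like for like. These are correlations over transcripts that share the same libraries, given as a description.

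Of the members, 2 had all 4 libraries with RGD above all 4 without at 12 h, as they did at 48 h, and both were named after their values were seen. This is 2 of the 69 higher with RGD, where 1.09% of the 6601 transcripts did so, and 0 of the 43 lower had all libraries with RGD below, where 0.939% did. ENSRNOT00000007071.6 stood at 22.7 and 21.5 CPM in soft and 19.2 and 25.7 CPM in stiff RGD-free gels at 12 h, and at 31.7 and 28.2 CPM in soft and 33.0 and 26.6 CPM in stiff gels with RGD. At 48 h it had 8.17 to 17.4 CPM without and 18.1 to 31.8 CPM with RGD. Its edgeR log2 fold change at 12 h was 0.40 ± 0.19 (SE, adjusted p = 1.0).

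ENSRNOT00000022528.6 stood at 8.81, 3.74, 4.79 and 8.70 CPM without RGD at 12 h and between 9.29 and 12.0 CPM with RGD. At 48 h it had 1.71 to 3.55 CPM without and 4.16 to 7.67 CPM with RGD, so that it was lower at the later time in both kinds of gel. Its edgeR log2 fold change at 12 h was 0.65 ± 0.326 (SE, adjusted p = 1.0). The count of 2 depended on scaling and was 1 with TMM-scaled CPM and 1 without the abundant pair.

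**Figure D5:**
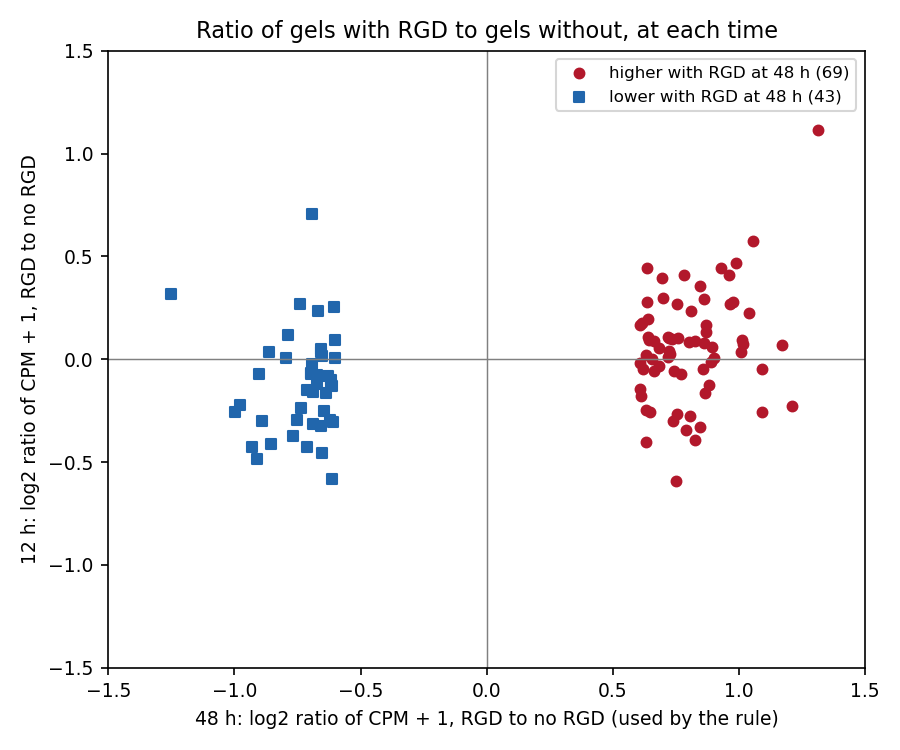
Log2 ratio of CPM + 1 between gels with and without RGD for each of the 112 members, at 48 h (horizontal axis, used to choose them) and at 12 h (vertical axis, from other libraries). The ratios at 12 h scatter around 0, with medians of 0.07 for the 69 members higher at 48 h (red circles) and -0.12 for the 43 lower (blue squares), and ENSRNOT00000091687.1 stands alone at 1.12.

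The difference with RGD at 48 h was present in both gels, as the rule requires, and its size could be compared between them. In soft gels the members higher with RGD had a median log2 ratio of 0.87, between 0.43 and 1.51, and in stiff gels of 0.70, between 0.25 and 1.52. The ratio was larger in soft gels for 46 of 69. The members lower with RGD had medians of -0.71 in soft and -0.72 in stiff gels, and the ratio was larger in size in soft gels for 21 of 43. Over all 6601 transcripts the medians were 0.04 and 0.06, and 3510 had the ratio of larger size in soft gels.

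The test of the difference between the RGD effects in stiff and soft gels at 48 h called 0 of 112 members by edgeR, DESeq2 and limma-voom, and 0 of 7876 transcripts (0.0%) by edgeR. By edgeR 0 members had an unadjusted p under 0.05, against 1.96% of all tested transcripts. The median log2 difference, stiff minus soft, was -0.176 for the members higher and -0.025 for those lower, against 0.013 for all tested transcripts. The rule used the same 8 libraries and required the RGD gap on the same side in both gels, which leaves out transcripts with an opposite or absent gap in 1 of them, so that a low share of members here is partly built in. For the named members the differences were 0.26 ± 0.819 for ENSRNOT00000091687.1, 0.27 ± 0.308 for ENSRNOT00000020505.3, -0.041 ± 0.642 for ENSRNOT00000068156.3 and -0.45 ± 0.49 for ENSRNOT00000021898.5 (edgeR log2, SE, adjusted p = 1.0 each). With SEs of that size and 2 libraries per group, the 0 calls do not show that the RGD difference was alike in soft and stiff gels.

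Stiffness itself, averaged over gels with and without RGD at 48 h, called 0 of 112 members and 0 of 7876 transcripts (0.0%) by edgeR, and DESeq2 and limma-voom called 0 members. By edgeR 2 members had an unadjusted p under 0.05, both higher with RGD and higher in stiff gels, against 7.33% of all tested transcripts. The rule leaves less room for an effect of stiffness, since every library with RGD lies on 1 side of every library without, so that a low share here is partly built in. The median log2 fold change of stiff against soft was 0.091 for the members higher with RGD, with 47 of 69 above 0, and -0.069 for those lower, with 30 of 43 below 0, against 0.005 for all tested transcripts.

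Both medians of stiffness moved when single 48 h libraries were left out. The first ranged from 0.011 without RGD-bearing soft replicate 1 to 0.173 without RGD-bearing soft replicate 2. The second ranged from -0.182 without RGD-free stiff replicate 1 to 0.029 without RGD-free stiff replicate 2. The edgeR log2 fold change of stiffness at 48 h was 0.35 ± 0.409 (SE, adjusted p = 0.89) for ENSRNOT00000091687.1 and reached 1.32 ± 0.326 (adjusted p = 0.0439) without RGD-free soft replicate 1. It was 0.13 ± 0.154 for ENSRNOT00000020505.3 (adjusted p = 0.893), 0.040 ± 0.321 for ENSRNOT00000068156.3 (adjusted p = 0.989) and -0.23 ± 0.245 for ENSRNOT00000021898.5 (adjusted p = 0.877).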

How the data were processed

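Libraries were 3′ tag RNA-seq of pelleted cells, per the labels' protocols. The authors deposited raw, whole-number counts for each Ensembl transcript. HISAT2 2.1.0, HTSeq, FastQC and build rn6 are named in the submitters' processing notes. The annotation release, the counting mode, the strand setting and any use of molecular identifiers were not given in the sources used here.

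CPM came from library totals (Python 3.11.15, pandas 2.3.3). Tests were edgeR 4.0.16 quasi-likelihood tests (R 4.3.3) with 1 mean per group over all 16 libraries, robust estimation, TMM scaling and edgeR's default expression filter (a minimum count of 10 and total of 15), leaving 7876 transcripts, all 112 members among them. P-values were adjusted by Benjamini-Hochberg over all tested transcripts. The SE is the fold change over the square root of the F statistic, an approximation. The fits and the rule were tested on simulated data. Alternatives included DESeq2 1.42.0 and limma-voom (limma 3.58.1). Replicates differed by more than counting noise in every group (chi-square per degree of freedom 2.682 to 14.92). The members and lists were chosen with earlier results of these data known. Named members are the 2 with the largest ratio in each direction among those with a mean of 20 or more counts at 48 h; a condition of adjusted p under 0.05 in a test added none. Lists of gene symbols could not be applied. No sequences or coordinates are given, since the identifiers could not be matched.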

Additional observations from a re-analysis of the deposited data

How the results depend on the processing

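The member count was 72 (39 higher, 33 lower with RGD) at a floor of 10 CPM, 41 (32 and 9) at a log2 ratio of 0.8 and 236 (135 and 101) at 0.4. With TMM scaling it was 108 (44 and 64), and without the 2 most abundant transcripts in the totals 158 (111 and 47). Leaving out each library in turn gave 102 to 361 members, 63 to 229 higher and 37 to 146 lower. Of the 112 members, 87 to 109 were found again, the fewest without RGD-bearing soft replicate 2 at 48 h. The count was 361 without RGD-bearing soft replicate 1 at 48 h and 307 without RGD-free stiff replicate 2 at 48 h. Without RGD-bearing stiff replicate 1 at 48 h it was 207. Fewer libraries have to be apart when any library at 48 h is left out, and the remaining removals at 48 h gave 121 to 160. Why the count rose more without some libraries than without others was not tested. Without RGD-free stiff replicate 1 at 48 h, 65 were lower.

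The test of RGD at 12 h called 0 members under each alternative and with each library left out, and 2 transcripts in all when only the 12 h libraries were fitted. For stiffness at 48 h, DESeq2 called 1 transcript, limma-voom 2 and the test with no filter on low counts 24, none of them members. Leaving out each library gave 0 to 66 calls, and 0 to 1 of them members; the 66, and the member, came without RGD-free soft replicate 1 at 48 h. With limma-voom the sign turned for stiffness of ENSRNOT00000068156.3 (-0.003) and for the difference of RGD between gels of ENSRNOT00000091687.1 (-0.272). With single libraries left out, RGD at 12 h ranged from -0.604 to 0.191 for ENSRNOT00000068156.3 and from -0.546 to 0.101 for ENSRNOT00000021898.5. Stiffness at 48 h ranged from -0.07 to 1.321 for ENSRNOT00000091687.1, from -0.005 to 0.294 for ENSRNOT00000020505.3 and from -0.259 to 0.272 for ENSRNOT00000068156.3. The difference of RGD between gels ranged from -1.671 to 1.107, from -0.064 to 0.537 and from -0.633 to 0.428 for the same 3. The cause of these changes was not tested.

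The time course was also computed with other scalings and with each library left out, alternatives chosen after seeing the data. With a library left out, 3 to 6 of the 69 members higher with RGD had their 48 h libraries with RGD wholly below 12 h. There were 6 without RGD-free stiff replicate 2 at 12 h (5.88% of all transcripts) and 5 without RGD-bearing stiff replicate 2 at 48 h (6.98%). Of the 43 members lower with RGD, 1 to 2 had their 48 h libraries with RGD wholly above 12 h. There were 2 without RGD-free soft replicate 1 at 12 h (7.3% of all transcripts) or RGD-bearing soft replicate 1 at 48 h (8.0%). At 12 h, members higher with RGD with all libraries with RGD above the others numbered 1 with either other scaling. Those with all below numbered 2 with TMM scaling and 1 without the abundant pair, against 0 on library totals. On library totals 1.09% of the 6601 transcripts had all above and 0.939% all below. The shares of all transcripts with the other scalings were not computed.

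The replicate number as a block left 0 members called in each of the 3 tests, and the median of RGD at 12 h was -0.166 for the members lower. Deviations of same-numbered libraries correlated between groups at -0.22 to 0.194, so that the numbers were not taken to pair the samples. Depth limits the members near 5 CPM, at 10.2 to 14.6 counts.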
